A study of Mus musculus with 18 samples.

Results

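The genes described here are the 10 core genes of the MHC class I pathway in the mouse: the heavy chains H2-K1 and H2-D1, the light chain B2m, the peptide transporter subunits Tap1 and Tap2, the loading chaperone Tapbp, the immunoproteasome subunits Psmb8, Psmb9 and Psmb10, and the transcriptional regulator Nlrc5. They were chosen by name, with earlier results of these data known, from the 55269 genes of the expression table. All 10 passed the minimum level for testing, as did 19442 genes in all. Poly-A RNA from the substantia nigra, a midbrain nucleus with dopaminergic neurons, was sequenced from 3-month-old mice in 3 groups of 6. Intact mice were wild type, and the labels name no treatment for them. The AAV-GFP group had received an adeno-associated virus (AAV) for overexpression of green fluorescent protein, and the AAV-SIRT3 group a virus for SIRT3, a deacetylase of mitochondria. Tissue was taken about a month after the virus was given. The labels name neither the strain, the sex, the injected site, the AAV serotype, the promoter of the transgene nor the cells it reached. The intact group therefore differed from both AAV groups in the virus and in all that its delivery involved, and AAV-GFP is the group that shares these with AAV-SIRT3.

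MHC class I molecules show peptides from inside a cell to CD8 T cells and NK cells. Proteins are cut by the proteasome, whose catalytic subunits can be exchanged for the inducible subunits of the immunoproteasome. The peptides are pumped into the endoplasmic reticulum by the TAP transporter and loaded, with the help of tapasin, onto a heavy chain bound to beta-2-microglobulin. In the brain these genes are low in most neurons, higher in microglia and endothelial cells, and they are inducible by interferons, through IRF factors and NLRC5 among others.

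In this tissue 7 of the 10 genes were higher in AAV-SIRT3 than in intact mice, and none was lower, where 11.3% of all genes tested were called higher and 10.3% lower. H2-K1, H2-D1, B2m, Psmb8, Psmb9, Psmb10 and Nlrc5 rose by 1.26 to 1.76-fold, while Tap1, Tap2 and Tapbp did not pass the test. In AAV-GFP mice all 10 estimates against intact were above 0, but 0 passed the test, where 0.823% of all genes were called higher. Between AAV-SIRT3 and AAV-GFP 0 of 10 passed, where 0.036% of all genes were called higher. Both counts of 0 are near these shares. A single library stood apart for the whole set: AAV-SIRT3 replicate 6 was the highest of the 18 libraries for each of the 10 genes, so the members' results, and the counts that it changes, are also given without it.

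In the mouse genome (GRCm38, GENCODE M21) 7 of the genes lie in the MHC region of chromosome 17. These are Tapbp at chr17:33915899-33929292, H2-K1 at chr17:33996017-34000347, Psmb9 at chr17:34181987-34187764, Tap1 at chr17:34187553-34197225, Psmb8 at chr17:34197721-34201454, Tap2 at chr17:34203527-34216321 and H2-D1 at chr17:35262730-35267499. B2m lies at chr2:122147686-122153083, Nlrc5 at chr8:94434356-94527272 and Psmb10 at chr8:105935735-105938444. All are protein-coding. Other annotated genes overlap 8 of the 10, all but H2-K1 and H2-D1. Tap1 and Psmb9 overlap at their 5′ ends on opposite strands, and B2m overlaps Patl2 on the opposite strand. Tapbp overlaps Zbtb22 on the same strand, and Tap2, Tapbp, Psmb8, Psmb10 and Nlrc5 each overlap at least 1 gene on the opposite strand that has only a clone name, such as Gm20496 for Tap2 and Psmb8. The strand setting used for counting is not given in the sources used here, so reads in the overlaps cannot be assigned with certainty. H2-K1 and H2-D1 resemble other class I genes: 0.957% of the 100-base windows of H2-K1 transcripts and 3.59% of those of H2-D1 also occur in another gene, most often H2-Q10 and H2-Q1, against 0% for 7 of the other members and 0.0775% for Tapbp. Reads from those windows could have been split or dropped.

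Promoter sequence is shown because several of the genes that rose together are known to share short regulatory elements. RefSeq (GRCm38.p6) gave a promoter for 8 of the 10 genes, and the table used here has no entry for Tap2 and Nlrc5. Sequences run 5′ to 3′ on the gene's strand. For H2-K1 (chr17:34000334-34000533, minus strand), H2-D1 (chr17:35262894-35263093, plus strand) and B2m (chr2:122147487-122147686, plus strand) they are the 200 bases before the RefSeq start. For Tap1 and Psmb9 they are the 225 bases between the RefSeq starts (chr17:34187331-34187555, plus strand, in the direction of Tap1). The starts in GENCODE M21 differ from these. The H2-D1 stretch lies wholly inside GENCODE H2-D1 (chr17:35262730-35267499), and the H2-K1 stretch partly inside GENCODE H2-K1, which ends at chr17:34000347. The Tap1 and Psmb9 stretch lies wholly inside GENCODE Psmb9 (chr17:34181987-34187764). These stretches are therefore upstream by RefSeq, but wholly or partly within transcribed genes by GENCODE. Capitals mark matches, on either strand, to the kappa B core GGGATTCCC, to the interferon response element as GAANNGAAA or GAAANNGAA, to the X2 box core TGACG and to the Y box CCAAT.
H2-K1: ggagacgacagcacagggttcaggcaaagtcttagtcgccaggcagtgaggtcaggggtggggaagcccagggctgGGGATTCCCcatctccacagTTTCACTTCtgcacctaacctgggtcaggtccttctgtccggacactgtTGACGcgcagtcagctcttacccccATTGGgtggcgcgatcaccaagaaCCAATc
H2-D1: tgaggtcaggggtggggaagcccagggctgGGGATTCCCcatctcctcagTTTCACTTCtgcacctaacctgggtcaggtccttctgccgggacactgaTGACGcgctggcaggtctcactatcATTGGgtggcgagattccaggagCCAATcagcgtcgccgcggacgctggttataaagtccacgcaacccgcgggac
B2m: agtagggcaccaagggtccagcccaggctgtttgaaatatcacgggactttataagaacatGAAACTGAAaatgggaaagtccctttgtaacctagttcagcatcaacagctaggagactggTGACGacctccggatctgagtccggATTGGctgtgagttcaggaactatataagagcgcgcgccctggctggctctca
Tap1 and Psmb9: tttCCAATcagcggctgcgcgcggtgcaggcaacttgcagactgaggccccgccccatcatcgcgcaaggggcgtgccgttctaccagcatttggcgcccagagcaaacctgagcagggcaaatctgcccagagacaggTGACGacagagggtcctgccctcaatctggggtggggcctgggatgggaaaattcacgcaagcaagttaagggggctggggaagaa

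The heavy chain promoters carried the same elements in the same order, a kappa B core, an interferon response element, an X2 core and Y boxes. Of 154 aligned bases 130 (84.4%) were identical between them. For H2-K1 this used the RefSeq start at chr17:34000333. Before its other RefSeq start, at chr17:34000347, the Y box at positions -16 to -12 was the only one. B2m had an interferon response element, an X2 core and a Y box in that order. Over 250 bases before the start, TGACG was found in 5 of the 8 members with a promoter (H2-K1, H2-D1, B2m, Tap1 and Psmb9) and in 19.8% of all 27025 genes with one. A gene was counted if any of its promoters matched. CCAAT was found in 6 of 8 members and in 37.5% of the 27025 genes. GGGATTCCC was found in H2-K1 and H2-D1 and in 0.352% of the 27025 genes, GAANNGAAA in the same 2 members and in 7.3%, and GAAANNGAA in B2m and in 8.18%. The gamma-activated sequence TTCNNNGAA was found in Psmb8 alone among the members and in 8.13% of the 27025 genes. The 2 interferon forms can overlap each other, and a promoter can hold several of these motifs. A match describes these letters and is no measurement of binding. Tap1 and Psmb9 share the sequence between their RefSeq starts, so their matches are not independent.

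Across the series, 47.2 to 64.7 M reads (megareads) were assigned to genes per library. The group means were 55.1 ± 5.03 M for intact, 55.6 ± 5.72 M for AAV-GFP and 55.8 ± 4.79 M for AAV-SIRT3 (SD, n = 6 each). Values below are normalised reads, which are reads per gene divided by the size factor of the library. The dopaminergic marker Th, tyrosine hydroxylase, was between 3673 and 6637 normalised reads in every library. Sirt3, the gene named for the AAV, was 1937 ± 79.4 normalised reads in AAV-SIRT3 and 1775 ± 92.4 in AAV-GFP (SD, n = 6 each), a log2 difference of 0.13 (SE 0.04, limma adjusted p = 0.183). The species and coding sequence of the delivered SIRT3 are not given in the labels, so this value does not test whether the virus was expressed. Intact replicates 1, 3 and 5 stood apart from the other libraries in Prkcd, a thalamus marker, with 7651, 7763 and 9445 normalised reads against at least 18060 in the other 15. In whole tissue, more cells of a type and more RNA per cell cannot be told apart.

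**Figure D1:**
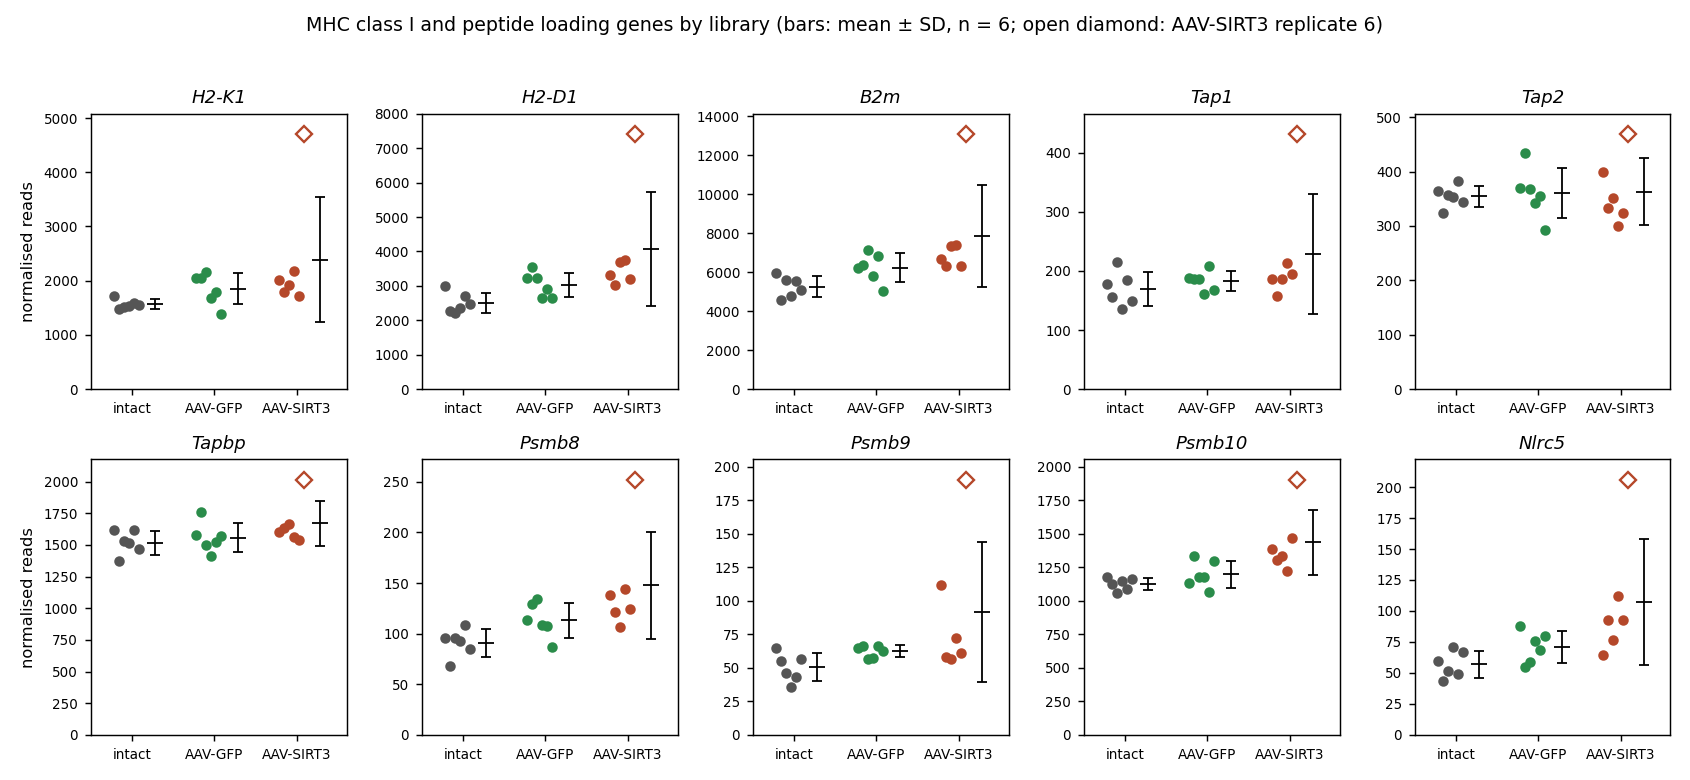
Normalised reads (vertical axis, from 0) of the 10 genes in each library of the 3 groups, with mean and SD (n = 6) to the right of each group. AAV-SIRT3 replicate 6, the open diamond, is the highest library in every panel; for H2-D1, B2m and Psmb10 all 6 AAV-SIRT3 libraries lie above all 6 intact ones.

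The classical heavy chains, which bind the peptide and are recognised by CD8 T cells, were compared first. H2-K1 was 1482, 1543 and 1726 normalised reads (lowest, median and highest of 6) in intact, 1393, 1920.0 and 2159 in AAV-GFP, and 1709, 1972 and 4707 in AAV-SIRT3. The AAV-GFP range enclosed the intact range, and the lowest AAV-SIRT3 library was just below the highest intact one. H2-K1 rose in AAV-SIRT3 against intact by a log2 difference of 0.51 (SE 0.17, adjusted p = 0.0348), and by 0.29 (adjusted p = 0.0278) without AAV-SIRT3 replicate 6. This call was near the threshold: leaving out any 1 of intact replicates 2 to 6 gave adjusted p between 0.0515 and 0.0617. H2-D1 was 2225, 2408 and 2983 in intact, 2634, 3062 and 3533 in AAV-GFP, and 3032, 3502 and 7415 in AAV-SIRT3. Every AAV-SIRT3 library was above every intact library, while AAV-GFP overlapped with both. H2-D1 rose in AAV-SIRT3 against intact by 0.63 on the log2 scale (SE 0.15, adjusted p = 0.0054), and by 0.45 (adjusted p = 0.00245) without replicate 6.

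B2m, the invariant light chain that pairs with class I heavy chains, was the most abundant member per length. It was 4549.7, 5304 and 5980.2 normalised reads in intact (lowest, median, highest), 5052, 6295 and 7157 in AAV-GFP, and 6303, 7002 and 13103 in AAV-SIRT3. The AAV-SIRT3 libraries lay wholly above the intact ones and overlapped with the AAV-GFP ones. The rise in AAV-SIRT3 against intact was 0.53 on the log2 scale (SE 0.13, adjusted p = 0.00659), and 0.38 (adjusted p = 0.00434) without replicate 6. Within the intact group B2m was highest in replicates 1, 3 and 5 (5980.2, 5600.2 and 5525), the 3 libraries with the lowest Prkcd, and 4549.7 to 5083 in the other 3. Its difference from AAV-SIRT3 was 0.66 (adjusted p = 0.0216) when these 3 were left out.

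The TAP transporter and its chaperone did not pass the test in any comparison. Tap1, the subunit that pairs with Tap2 to move peptides into the endoplasmic reticulum, was 135, 167 and 216 normalised reads in intact, 161, 187 and 209 in AAV-GFP, and 157, 191 and 432 in AAV-SIRT3. Its AAV-SIRT3 against intact difference was 0.36 (95% interval -0.01 to 0.72, adjusted p = 0.152), and 0.16 (-0.09 to 0.41, adjusted p = 0.392) without replicate 6. With that library left out the AAV-SIRT3 values, 157 to 214, lay inside the intact range. Tap2 was 324, 356 and 382 in intact, 293, 362 and 435 in AAV-GFP, and 301, 342 and 469 in AAV-SIRT3. Its AAV-SIRT3 against intact estimate was 0.02 (95% interval -0.19 to 0.23, adjusted p = 0.907) and changed sign, to -0.06, without replicate 6. Tapbp, or tapasin, which holds the empty heavy chain at the transporter, was 1369.7, 1520.2 and 1617 in intact, 1415, 1545 and 1759.9 in AAV-GFP, and 1541, 1616 and 2014 in AAV-SIRT3. Its difference was 0.13 (SE 0.06, adjusted p = 0.136), and 0.08 (adjusted p = 0.342) without replicate 6. For Tap2 and Tapbp the intervals reach no further than 0.23 and 0.26, below the estimates of the 7 genes that rose, whereas the interval of Tap1 includes the estimates of H2-K1, H2-D1 and B2m.

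The 3 immunoproteasome subunits all rose. Psmb8, which takes the place of the chymotrypsin-like subunit Psmb5, was 68.0, 94.3 and 108 normalised reads in intact, 86.4, 111 and 134 in AAV-GFP, and 107, 131 and 252 in AAV-SIRT3. Only the lowest AAV-SIRT3 library, at 107, fell below the highest intact one. The rise of Psmb8 in AAV-SIRT3 against intact was 0.65 on the log2 scale (SE 0.17, adjusted p = 0.0109), and 0.48 (adjusted p = 0.0231) without replicate 6. Psmb9, which replaces Psmb6, was 36.0, 50.6 and 65.0 in intact, 56.7, 63.7 and 66.6 in AAV-GFP, and 56.2, 66.9 and 190.2 in AAV-SIRT3. Its AAV-SIRT3 libraries were spread widely, with replicate 1 at 111 and replicate 6 at 190.2 against 56.2 to 72.4 in the other 4. Psmb9 rose by 0.72 (SE 0.24, adjusted p = 0.0336) with all libraries, but the call was lost without AAV-SIRT3 replicate 6 (0.48, adjusted p = 0.0781) and without AAV-SIRT3 replicate 1 (0.64, adjusted p = 0.0747). It was lost too without intact replicate 3, 4 or 5, with adjusted p of 0.0614, 0.0794 and 0.0640. Psmb10, which replaces Psmb7, was 1057, 1135 and 1179 in intact, 1062, 1178 and 1330.4 in AAV-GFP, and 1222, 1360.0 and 1902 in AAV-SIRT3. All AAV-SIRT3 libraries were above all intact ones. The rise of Psmb10 was 0.34 (SE 0.08, adjusted p = 0.00552), and 0.25 (adjusted p = 0.00775) without replicate 6.

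Nlrc5, the regulator of class I gene transcription in the nucleus, had the largest estimate of the 10 and the lowest level per length. It was 43.5, 55.6 and 70.9 normalised reads in intact, 54.7, 72.1 and 87.8 in AAV-GFP, and 64.8, 92.6 and 206 in AAV-SIRT3. AAV-SIRT3 replicate 1, at 64.8, lay inside the intact range, and the other 5 lay above it. Nlrc5 rose in AAV-SIRT3 against intact by 0.82 on the log2 scale (SE 0.22, adjusted p = 0.0107), and by 0.61 (adjusted p = 0.0228) without replicate 6.

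Across the members, the median log2 difference of AAV-SIRT3 against intact was 0.52, against 0.00 over all genes. Without AAV-SIRT3 replicate 6 the median was 0.33 and 6 of 10 members rose, where 9% of all genes were called higher and 8.32% lower. H2-D1, B2m and Psmb10 had every AAV-SIRT3 library above every intact library, with and without replicate 6, which held for 5.01% of all genes tested, and for 5.66% without it. When intact replicates 1, 3 and 5 were left out together, a choice made after seeing the data, 3 members passed: B2m, H2-D1 (0.71, adjusted p = 0.0273) and Psmb8 (0.80, adjusted p = 0.0305). Over all 19442 genes tested, 871 were called higher and 815 lower in that fit, against 2206 and 2008 with all 18 libraries. In that fit, with 3 intact libraries, Psmb10 (adjusted p = 0.0598), Nlrc5 (0.0954), H2-K1 (0.114) and Psmb9 (0.116) did not pass, with log2 differences of 0.31 to 0.76.

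AAV-GFP against intact compared mice with and without a virus and its delivery, in the absence of the SIRT3 virus. The 2 groups also differed in thalamus markers, with a median log2 difference of 0.72 over 5 genes. The part of that difference in the members' estimates was not tested. All 10 estimates were above 0, from 0.02 for Tap2 to 0.33 for Psmb9, with a median of 0.24, and the adjusted p ran from 0.316 to 0.951. No member had an unadjusted p under 0.05, and edgeR and DESeq2 on the recovered reads also called 0 members. Of all genes tested 0.823% were called higher in this comparison, and 0.874% had every AAV-GFP library above every intact one, which no member did. The 95% intervals do not exclude changes of the size seen with AAV-SIRT3: they reached 0.58 for H2-K1, 0.59 for H2-D1, 0.52 for B2m, 0.67 for Psmb8 and 0.76 for Nlrc5.

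AAV-SIRT3 against AAV-GFP, the comparison that differs in the transgene alone as far as the labels say, gave 0 calls among the 10 members, and edgeR and DESeq2 on the recovered reads gave 0 as well. All 10 estimates were above 0, from 0.00 for Tap2 to 0.51 for Nlrc5, with a median of 0.28. At an unadjusted p under 0.05 there were 4 members: H2-D1, B2m, Psmb10 and Nlrc5. The lowest adjusted p was 0.162, for Psmb10 (0.25, SE 0.08). Without replicate 6 there was 1 such member, Psmb10, and the median fell to 0.14. Only 0.036% of all genes tested were called higher here (0.0257% without replicate 6), and 0.37% had every AAV-SIRT3 library above every AAV-GFP one. The comparisons share groups with each other, so their estimates are not independent.

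**Figure D2:**
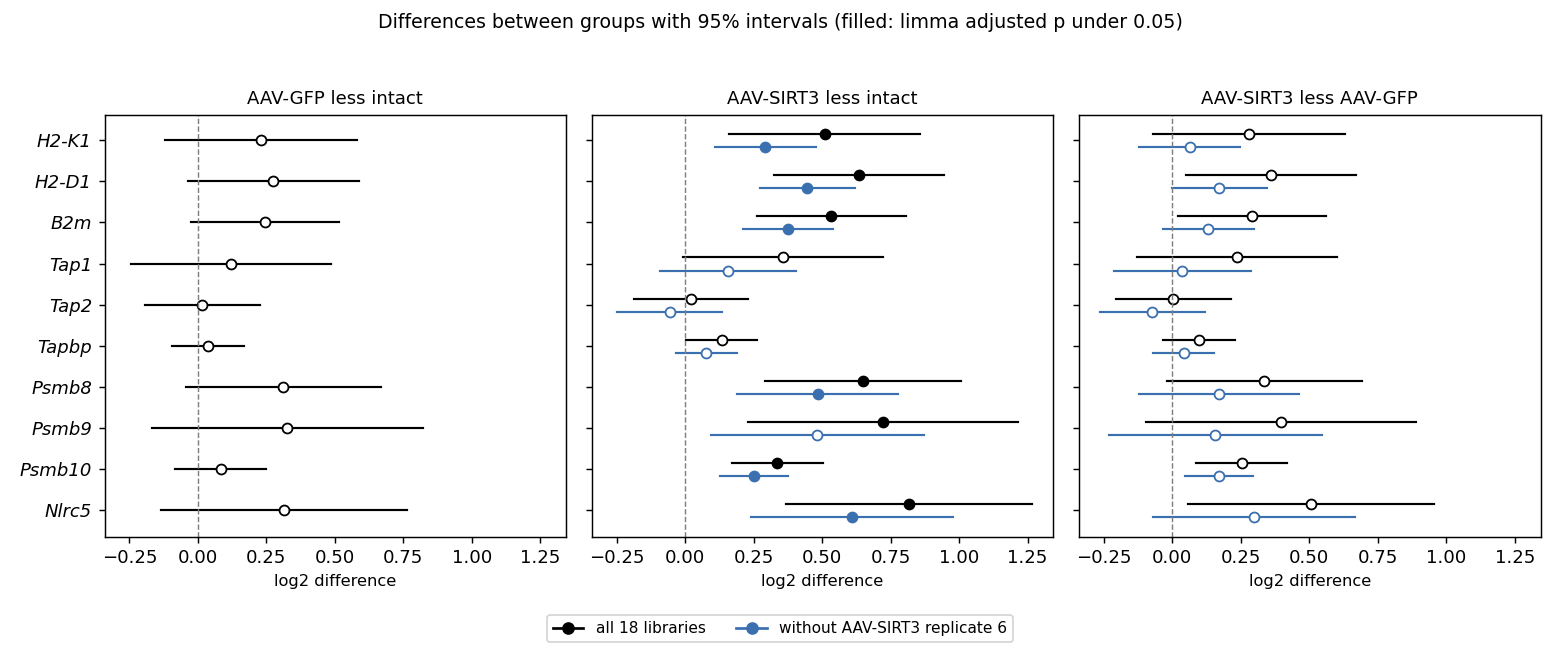
Log2 differences (horizontal axis) of the 10 genes with 95% intervals in the 3 comparisons, filled where the limma adjusted p was under 0.05. With all 18 libraries 7 genes passed in AAV-SIRT3 less intact and 0 in the other panels; the blue points leave out AAV-SIRT3 replicate 6, which lowered every estimate in both AAV-SIRT3 panels.

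Levels between genes were compared per kilobase of exon. In intact mice B2m came first with 6110.4 ± 628 normalised reads per kilobase (SD, n = 6), followed by H2-D1 with 969 ± 114, Psmb10 with 660.3 ± 27.3, H2-K1 with 533 ± 29.7 and Tapbp with 418 ± 25.9. Tap2 had 93.7 ± 5.19 and Tap1 31.0 ± 5.33, Psmb8 26.9 ± 4.02, Psmb9 13.7 ± 2.86 and Nlrc5 6.70 ± 1.26. The ranges of Tap1 and Psmb8 overlapped, and those of the other neighbours in this order did not. Psmb10, an immunoproteasome subunit, thus stood well above the other inducible subunits per length in every group.

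The exchange of proteasome subunits was examined as a ratio within each library, which does not depend on scaling between libraries. Psmb8 reads were 2.90 to 4.69% of Psmb5 reads in intact libraries, 3.07 to 5.30% in AAV-GFP and 3.70 to 8.03% in AAV-SIRT3. Psmb9 reads were 0.746 to 1.23% of Psmb6 reads in intact, 1.05 to 1.36% in AAV-GFP and 1.02 to 2.85% in AAV-SIRT3. Psmb10 reads were 33.9 to 36.2% of Psmb7 reads in intact, 32.3 to 39.2% in AAV-GFP and 35.2 to 53.0% in AAV-SIRT3. The highest value of each ratio was again in replicate 6.

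None of the 9 differences in these ratios passed after adjustment. The smallest p was for Psmb10 to Psmb7 in AAV-SIRT3 against intact, a log2 difference of 0.22 (exact two-sided permutation p = 0.00866, adjusted p = 0.0779 over 9 tests). It was 0.14 (adjusted p = 0.0779) without replicate 6. Against AAV-GFP the same ratio differed by 0.22 (exact permutation p = 0.0216, adjusted p = 0.0974). Both passed when AAV-SIRT3 replicate 4 was left out (adjusted p of 0.0195 and 0.0487, exact permutation test) or when AAV-GFP replicate 6 was (0.0390 for each). Psmb8 to Psmb5 differed by 0.40 (exact permutation p = 0.0584, adjusted p = 0.175) and Psmb9 to Psmb6 by 0.52 (exact permutation p = 0.0844, adjusted p = 0.175) in AAV-SIRT3 against intact. The smallest p that 6 against 6 libraries allow is 0.00216.

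**Figure D3:**
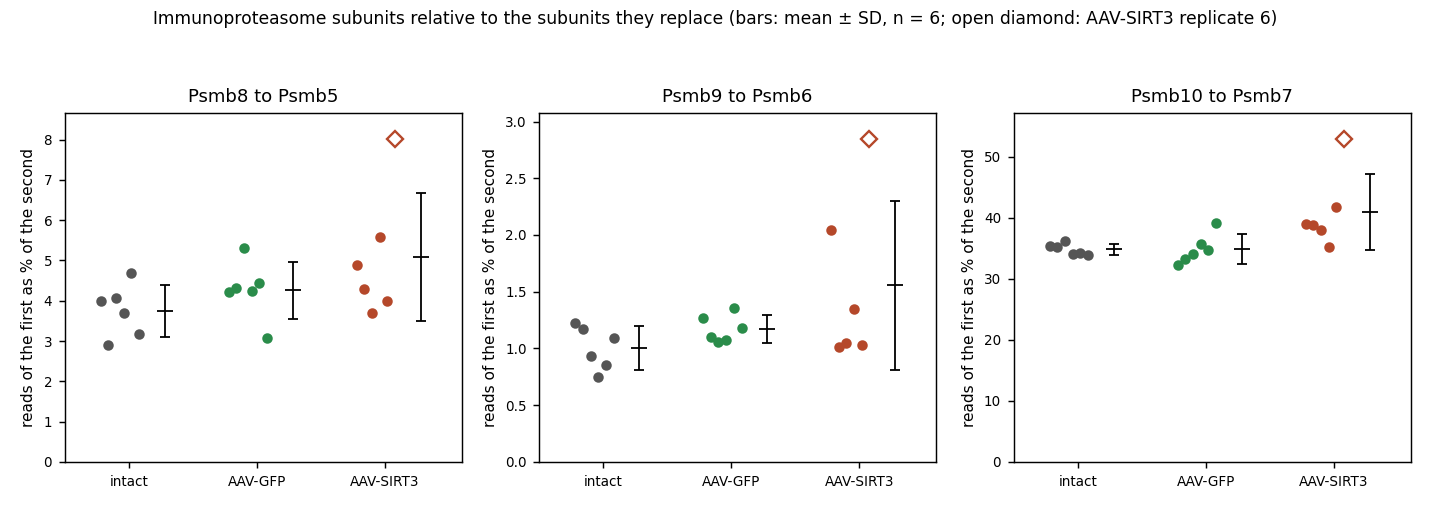
Reads of each immunoproteasome subunit as a percentage of the reads of the constitutive subunit it replaces (vertical axes, from 0), by library and group, with mean and SD (n = 6). The groups overlap in all 3 ratios, and AAV-SIRT3 replicate 6 (open diamond) is highest at 8.03, 2.85 and 53.0%.

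The constitutive subunits themselves moved in the same direction and by less. Psmb5 rose in AAV-SIRT3 against intact by 0.25 (SE 0.06, adjusted p = 0.00392) and Psmb6 by 0.20 (SE 0.05, adjusted p = 0.0121), while Psmb7 differed by 0.12 (adjusted p = 0.112). Pomp, the assembly factor of the proteasome, rose by 0.29 (SE 0.06, adjusted p = 0.00316). The activator subunits Psme1 and Psme2 did not pass, with 0.11 (adjusted p = 0.221) and 0.22 (adjusted p = 0.0631).

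Among the other 55 genes listed for the pathway, 51 were in the table and 46 were tested. In AAV-SIRT3 against intact 12 rose and 6 fell, where 11.3% of all genes were called higher and 10.3% lower, and their median log2 difference was 0.06, against 0.52 for the 10 members. Without replicate 6 it was 9 and 6, because H2-T22, Irf9 and Rfxap no longer passed (adjusted p of 0.117, 0.101 and 0.0718). In AAV-GFP against intact 2 rose, Irf8 and Ifngr1, and 0 fell, where 0.823% of all genes were called higher and 1.02% lower. In AAV-SIRT3 against AAV-GFP 0 passed, with 8 at an unadjusted p under 0.05.

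Of the 12 other class I heavy chains tested, 2 rose and 1 fell in AAV-SIRT3 against intact, shares near those over all genes. H2-Q7, a nonclassical chain of the Q region, was 0 to 10.3 normalised reads in intact and 8.58 to 56.3 in AAV-SIRT3, and rose by 1.84 (SE 0.53, adjusted p = 0.0166). At these levels few reads decide the value, and near-identical Q genes can exchange reads with it. H2-T22 rose by 0.18 (adjusted p = 0.0468), and H2-T24 fell by 0.60 on the log2 scale (SE 0.12, adjusted p = 0.00246), from 415 to 496 in intact to 256 to 405 in AAV-SIRT3, without overlap. Of the 4 class I-like chains, Cd1d1, which presents lipids, fell by 0.55 (adjusted p = 0.0231). Among the 6 chaperone and trimming genes, Calr, the chaperone calreticulin, rose by 0.20 (adjusted p = 0.0302), and Lnpep, an aminopeptidase used in cross-presentation, fell by 0.24 (adjusted p = 0.00823).

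Of the 11 regulators listed, 5 rose and 2 fell in AAV-SIRT3 against intact. Irf7, an interferon-inducible factor that amplifies type I interferon responses, was 82.5, 112 and 156 normalised reads in intact (lowest, median, highest), 74.9, 85.9 and 151 in AAV-GFP and 149, 195 and 642 in AAV-SIRT3. It rose by 1.12 (SE 0.28, adjusted p = 0.00733), and by 0.84 (adjusted p = 0.0126) without replicate 6. Irf8, a factor of the microglial lineage, rose in both AAV groups, by 0.45 (adjusted p = 0.00618) in AAV-SIRT3 and 0.47 (adjusted p = 0.0319) in AAV-GFP. Irf9 rose by 0.28 (adjusted p = 0.0485) and Rfxap by 0.15 (adjusted p = 0.0410), while Irf1 differed by -0.04 (adjusted p = 0.825).

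The regulators that fell were Rfx5, a subunit of the factor that binds the X box of both class I and class II promoters, by 0.24 (adjusted p = 0.00455), and Ciita, the class II counterpart of Nlrc5, by 0.64 (SE 0.23, adjusted p = 0.0486). Ciita was 51.3 to 81.6 normalised reads in intact and 21.9 to 63.0 in AAV-SIRT3. Among interferon receptors, Ifngr1 rose by 0.20 (adjusted p = 0.00697) and Ifnar1 fell by 0.18 (adjusted p = 0.00215) in AAV-SIRT3 against intact. The interferon genes Ifng and Ifnb1 were at most 2.98 and 1.13 normalised reads in any library, too few to test.

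**Figure D4:**
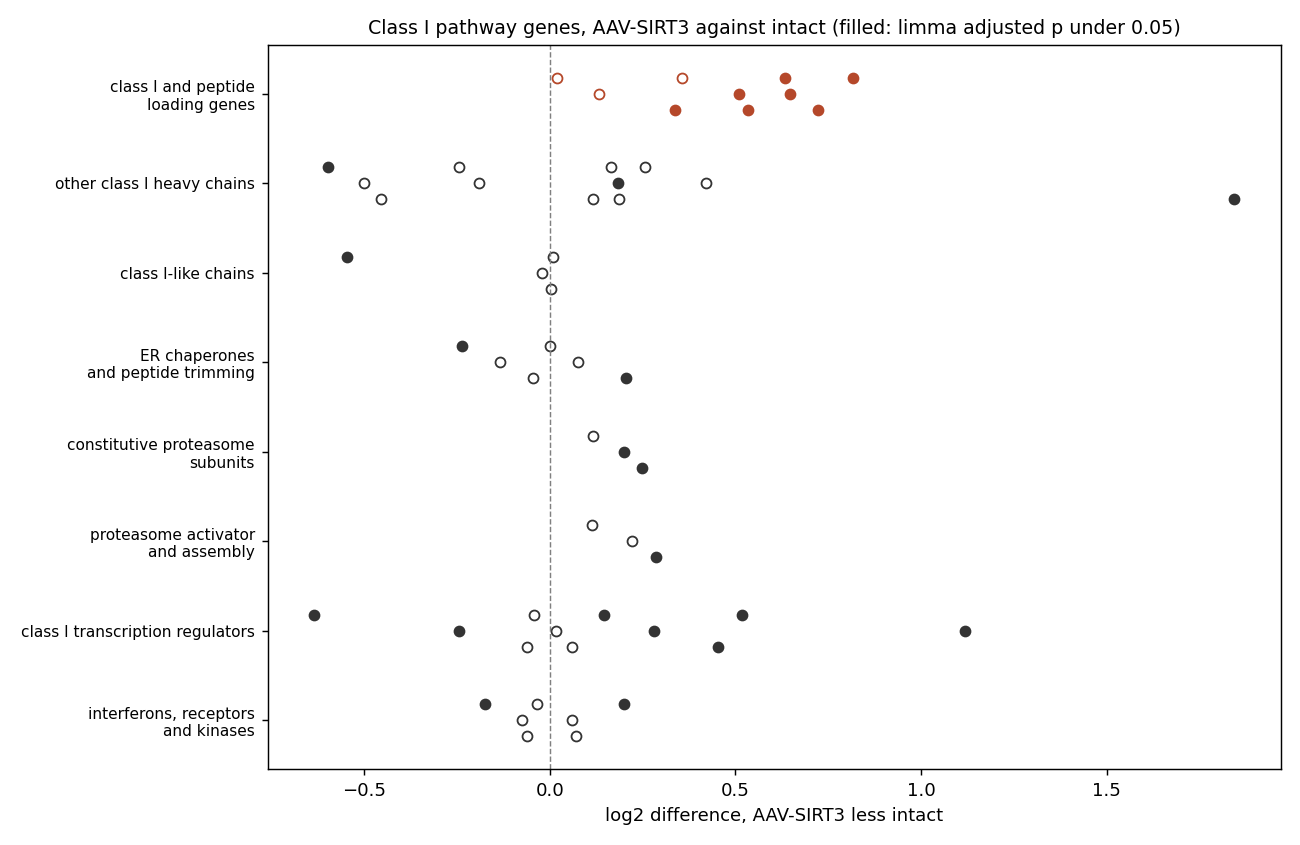
Log2 differences of AAV-SIRT3 less intact (horizontal axis) for the 10 genes and for 46 other genes of the class I pathway by role, 1 point per gene, filled where the limma adjusted p was under 0.05. All 10 members lie at or right of 0, and the other lists hold genes on both sides except the proteasome lists.

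AAV-SIRT3 replicate 6 was compared with the other 5 libraries of its own group. All 10 members were highest of the 18 libraries in it, as were 12.6% of all genes tested. The ratio to the median of the other 5 was 3.10 for Psmb9, 2.44 for H2-K1, 2.31 for Tap1, 2.23 for H2-D1, 2.23 for Nlrc5, 2.02 for Psmb8, 1.96 for B2m, 1.43 for Psmb10, 1.41 for Tap2 and 1.26 for Tapbp. The median ratio was 2.11 for the members and 1.00 over all genes, and 7 of 10 members had at least 1.5, against 7.21% of all genes. Of 12 interferon-stimulated marker genes 11 were highest in this library, with a median ratio of 2.90 and up to 5.81 for Mx1. Pituitary and choroid plexus markers were also raised in it against the other 5, with a median ratio of 2.95 and 6 of 6 at 1.5 or more. Their sum there was 1749 normalised reads, the highest of AAV-SIRT3, within the intact range of 1062 to 48832. The median ratio was 1.37 for the other class I heavy chains, 1.28 for the microglia markers, 1.22 for the 4 T and NK cell markers tested, 1.11 for the constitutive proteasome subunits and 0.94 for the chaperone and trimming genes. It was 1.05 for oligodendrocyte, 1.00 for endothelial and 0.93 for astrocyte markers, and 0.87, 0.84 and 0.82 for dopaminergic, thalamus and GABAergic ones. The part of these lists in the class I values of this library was not tested. Tap1 and Tap2, which did not differ between the groups by the test, were raised in this library together with the rest.

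**Figure D5:**
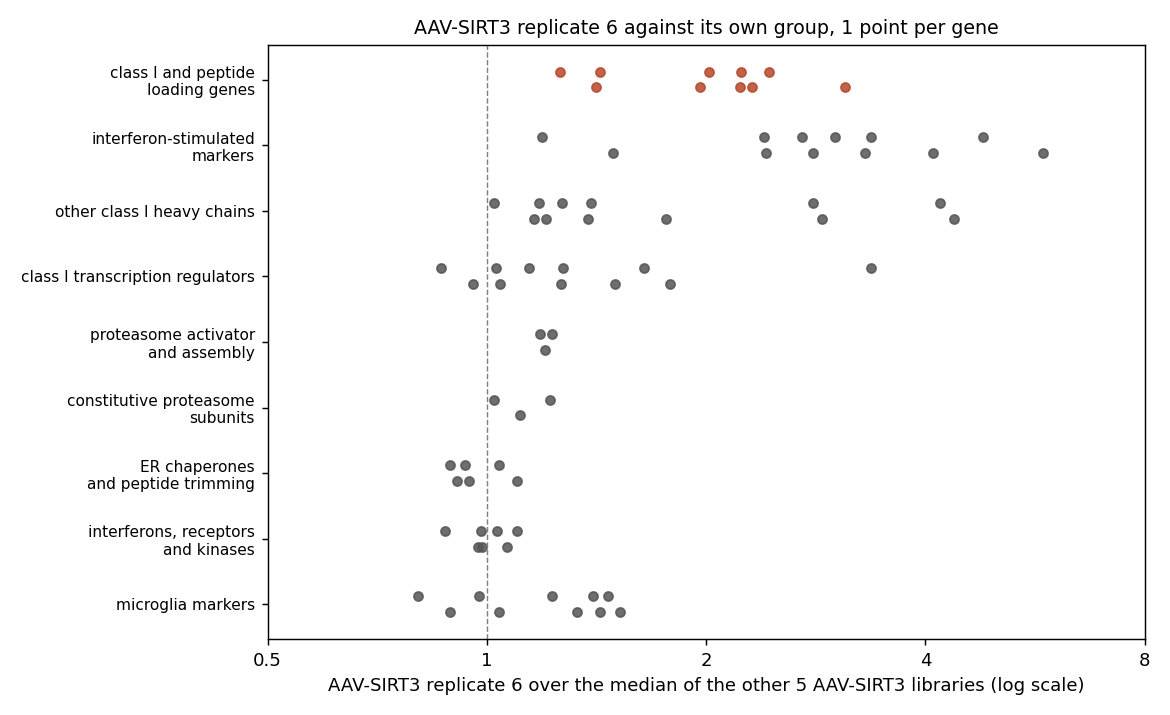
Value in AAV-SIRT3 replicate 6 divided by the median of the other 5 AAV-SIRT3 libraries (horizontal log axis), 1 point per gene, by gene list. The 10 class I and peptide loading genes lie between 1.26 and 3.10, interferon-stimulated markers reach 5.81, and chaperones and receptors lie near 1.

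The members varied together within groups over 18 libraries, and less so without replicate 6. After subtraction of the group means, the 45 pairs of members had a median Pearson r of 0.71 over 18 libraries (0.16 to 0.95), and 42 pairs were above 0.5. Without replicate 6 the median was 0.24 over 17 libraries (-0.57 to 0.79), with 12 pairs above 0.5 and 13 below 0. H2-D1 with B2m had 0.92 over 18 libraries and 0.70 over the 17, and B2m with Tap1 had 0.66 over the 17. Nlrc5 was below 0 with every other member over the 17, from -0.57 with Tap2 to -0.08 with Psmb8. Psmb10 was also below 0 there with H2-K1, B2m, Tap1 and Psmb8, down to -0.42 with B2m. The points share libraries and their scaling, so these values are a description.

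The 5 genes outside the set whose values within groups were most like the mean of the members over 18 libraries were Ifi27 (r = 0.93), Ifit3 (0.91), Gbp3 (0.91), Oasl2 (0.88) and Irgm2 (0.88), where the 99th percentile of all genes was 0.69. Without replicate 6 these had r of 0.69, 0.78, 0.65, 0.69 and 0.54, ranking 130, 24, 210, 115 and 663 among the tested genes outside the set. The 5 most alike were then H2-T23 (0.87), Asap3 (0.84), C1qtnf1 (0.84), Plod3 (0.83) and Slc16a13 (0.82). Ifit3 was 411 to 567 normalised reads in intact, 436 to 724 in AAV-GFP and 773 to 2551 in AAV-SIRT3, so that its AAV-SIRT3 libraries lay above all others. It rose by 1.19 (SE 0.21, adjusted p = 0.000936) against intact and by 1.03 (SE 0.21, adjusted p = 0.0487) against AAV-GFP. Oasl2 rose by 1.09 (adjusted p = 0.00382) and 1.22 (adjusted p = 0.0487) in the same comparisons. Ifi27 and Gbp3 rose against intact, by 0.43 (adjusted p = 0.0331) and 0.53 (adjusted p = 0.0286), but did not pass against AAV-GFP, with 0.37 (adjusted p = 0.227) and 0.48 (adjusted p = 0.203). Irgm2, though alike within groups, did not pass in either comparison, with -0.02 (95% interval -0.35 to 0.31) against intact and 0.13 (adjusted p = 0.730) against AAV-GFP.

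Marker lists were compared in the same fit. Of all genes tested, 11.3% were called higher and 10.3% lower in AAV-SIRT3 against intact, and 0.823% and 1.02% in AAV-GFP against intact. In AAV-SIRT3 against AAV-GFP 0.036% were called higher. The 12 interferon-stimulated markers summed to 2883 to 3625 normalised reads in intact, 2757 to 3657 in AAV-GFP and 3913 to 10244 in AAV-SIRT3, with 8 of 12 higher in AAV-SIRT3 against intact, 0 of 12 higher in AAV-GFP against intact and 2 of 12, Ifit3 and Oasl2, higher in AAV-SIRT3 against AAV-GFP. Without AAV-SIRT3 replicate 6 the first count was 7 and the last 2, where 9% and 0.0257% of all genes were called higher. The 10 microglia markers summed to 19192 to 21575 in intact, 21066 to 26771 in AAV-GFP and 21428 to 25313 in AAV-SIRT3, with 5 of 10 higher in AAV-SIRT3 (4 without replicate 6) and 4 of 10 in AAV-GFP against intact. Between the AAV groups the microglia list and the members had medians of opposite sign. In AAV-SIRT3 against AAV-GFP 0 of the 10 microglia markers were called higher and 1 lower, where 0.0772% of all genes were called lower. Of the 10 microglia markers, 3 had estimates above 0, the largest 0.26 for Tmem119 (limma adjusted p = 0.134), and the median was -0.09. Of the members 10 had estimates above 0, with a median of 0.28. Without replicate 6 it was 2 of 10 microglia markers, with a median of -0.13, and 9 of 10 members, with a median of 0.14. The part of microglia in the class I values was not tested. Without replicate 6 no microglia marker passed there, with a lowest adjusted p of 0.0773.

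The 12 T and NK cell markers summed to 117 to 227 normalised reads in intact, 159 to 267 in AAV-GFP and 187 to 332 in AAV-SIRT3. Lck, at 58.4 to 119 over the 18 libraries, Trbc2, at 18.3 to 81.0, and Cd4, at 9.77 to 141, were at levels like those of Psmb8, Psmb9 and Nlrc5. Of the 12 genes, 8 stayed under 10 in every intact library, 7 in every AAV-GFP library and 3 in every AAV-SIRT3 library, and Cd3d and Ncr1 did so in all 18. AAV-SIRT3 replicate 6 was the highest of the 18 libraries for 5 of the 12, with Cd3g at 18.003 against at most 8.30 elsewhere, Cd2 at 16.9 against 7.94, Cd8b1 at 10.1 against 2.98, Nkg7 at 10.1 against 7.94 and Trbc2 at 81.0 against 70.7. Its sum was 287, inside the AAV-SIRT3 range. Of the 12 genes 4 reached the level for testing, Cd3e, Lck, Cd4 and Trbc2, and 0 passed in any comparison, also at an unadjusted p under 0.05. Their median log2 difference against intact was 0.68 in AAV-SIRT3, with 4 of 4 above 0, and 0.64 in AAV-GFP, with 3 of 4 above 0. Between the AAV groups the median was 0.14. With so few genes and reads, the lack of a call does not exclude differences of this size.

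In AAV-SIRT3 against intact 11.3% of all genes tested were called higher and 10.3% lower, or 9% and 8.32% without AAV-SIRT3 replicate 6. Endothelial markers, from a cell type that also expresses class I, had 1 of 6 higher, Ly6c1, and 3 lower in AAV-SIRT3 against intact. The lower ones were Tek, Cldn5 and Pecam1, and without AAV-SIRT3 replicate 6 only Tek remained, with adjusted p of 0.0605 for Cldn5 and 0.0851 for Pecam1. The 6 summed to 6013 to 8157 in intact and 5382 to 8158 in AAV-SIRT3. Of 5 thalamus markers 4 were higher (5 without replicate 6), of 6 pituitary and choroid plexus markers 5 were lower, and 0 of 7 dopaminergic, 0 of 6 astrocyte, 1 of 4 GABAergic and 1 of 6 oligodendrocyte markers were called, both higher, in the same comparison. The thalamus list had a median log2 difference of 0.69 there and 0.72 in AAV-GFP against intact, where 1 of 5 was called higher. The pituitary and choroid plexus list had medians of -2.43 and -1.71, with 3 of 6 called lower in AAV-GFP. Of all genes tested 0.823% were called higher and 1.02% lower in AAV-GFP against intact. The part of these cell types and regions in the class I results was not tested.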

How the data were processed

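Groups and replicate numbers of the 18 libraries (6 per group) were taken from the sample titles, and each of the 18 sample columns matched 1 library, with 0 left over. The authors deposited a signal for each gene, and the table's name describes it as counts from HTSeq after DESeq2 normalisation. The submitters' processing notes name HISAT2 2.1.0, DESeq2 1.34.0 and mm10, and the annotation, strand setting and HTSeq version are not given in the sources used here. Per the labels' protocols, the stranded libraries gave paired reads of 100 bp. Each value proved to be a whole read count divided by 1 size factor per library, to within 1e-06 reads. The proof is weaker where the factor is close to 1, in AAV-SIRT3 replicate 4 and intact replicate 4. A row without a gene name, at most 0.000289% of the reads of a library, was left out. Intervals and depth cover counting error only where they rest on reads, which are not independent molecules.

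Values were transformed to log2(value + 1), a scale that understates changes of low genes. Genes with at least 10 in at least 6 libraries were tested with limma 3.58.1 in R 4.3.3, in a single fit of the 3 groups (15 residual degrees of freedom, trend in the prior variance), with Benjamini-Hochberg adjustment over all genes at 0.05. Subunit ratios were compared by exact two-sided permutation tests in scipy 1.17.1. Alternatives were TMM and quantile scaling, pseudocounts of 0.5 and 10, other filters, count tests of the recovered reads (DESeq2 1.42.0, edgeR 4.0.16), 2-group fits, a replicate block, array weights and leaving out each library. Leaving out AAV-SIRT3 replicate 6 with AAV-GFP replicate 2, and intact replicates 1, 3 and 5 together, was added after seeing the data. The procedure was tested on simulated data. Each group is 6 mice per the series text, and p-values measure the spread between these samples.

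The members, the lists and the rule for naming genes were chosen with earlier results of these data known. Besides the members, pathway genes past the threshold are named, with Psmb5, Psmb6, Psmb7, Psme1, Psme2 and Irf1 in any case, and the 5 genes most correlated with the members within groups. Some further listed genes are not reported here. Single marker genes, H2-T23 and the 5 genes most alike without replicate 6 were named after their values were seen. Positions come from GENCODE M21 (GRCm38) and promoters from RefSeq (GRCm38.p6).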

Additional observations from a re-analysis of the deposited data

Results flagged for a closer look

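In 8 of the 10 genes AAV-SIRT3 replicate 6 lay farther above its group than Dixon's 95% critical value for 6 libraries allows for a single high value. H2-K1 was 4707 normalised reads there against 2179.7 in the next library of the group, H2-D1 7415 against 3740.2, and B2m 13103 against 7404. Tap1 was 432 against 214, Tapbp 2014 against 1668, Psmb8 252 against 144, Psmb10 1902 against 1469, and Nlrc5 206 against 112. In all, 39 sets of 6 values were examined (the 10 genes and 3 subunit ratios in 3 groups). The 8 that passed the critical value are all from this library, where chance gives about 1 in 20, or 1.95 sets, and since the 8 share 1 library they are not independent. Psmb9 and Tap2 were also highest in this library but stayed within the critical value.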

How the results depend on the processing

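The count of class I genes called in AAV-GFP against intact and in AAV-SIRT3 against AAV-GFP was 0 under every alternative run. In AAV-SIRT3 against intact it was 7, with 7 by edgeR, by DESeq2 and with array weights, 5 without a filter on low values, 5 in the fit of the 2 groups compared, and 5 to 7 when 1 library was left out. It was 3 with intact replicates 1, 3 and 5 left out together, a fit with fewer samples. Over all genes tested that fit called 871 higher, against 2206 with all 18 libraries. Of 947 single values recomputed, 902 kept direction and side of the threshold, 20 lost the call, 4 gained it and 21 changed sign. The sign changes were all in estimates near 0. Tap2 in AAV-GFP against intact was -0.012 with array weights, -0.039 without AAV-SIRT3 replicate 6 and AAV-GFP replicate 2 together, and -0.039 to 0.075 when single libraries were left out. In AAV-SIRT3 against intact Tap2 was -0.056 without those 2 libraries and -0.056 to 0.072 without single ones, and in AAV-SIRT3 against AAV-GFP it was -0.017 and -0.073 to 0.060. Psmb10 to Psmb7 in AAV-GFP against intact was 0.012 without those 2 libraries, 0.016 without intact replicates 1, 3 and 5, and -0.036 to 0.020 without single libraries. The count of subunit ratios past the threshold, 0, ranged from 0 to 2 when single libraries were left out, with 2 without AAV-GFP replicate 6 and 2 without AAV-SIRT3 replicate 4. The cause of these shifts was not tested.

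Same-numbered libraries of different groups did not deviate together (correlation -0.0953 to 0.175 over 18 pairs, 1 above 0.1), so the numbers were not taken as pairs. A replicate block gave 6 called genes in AAV-SIRT3 against intact, without H2-K1 (adjusted p = 0.0525), and 0 in the other comparisons. Depth limits the low genes most: Nlrc5, Psmb8 and Psmb9 have the fewest reads of the 10, and the interferon genes on almost none.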

Other observations

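Within AAV-SIRT3, replicate 4 came next after replicate 6 for several of these genes: it had 2179.7 normalised reads of H2-K1, 3740.2 of H2-D1, 7404 of B2m, 214 of Tap1, 144 of Psmb8 and 112 of Nlrc5, each the highest of the other 5 libraries. The same library had the highest Irf7 (347) of these 5, and Ifit3 at 1399 and Oasl2 at 929 normalised reads. For other members replicate 4 was low: it had the lowest Psmb10 (1222) and Tap2 (301) of all 6 AAV-SIRT3 libraries and the second lowest Tapbp (1559). Psmb9 and Psmb10 were highest among the 5 in replicate 1 (111) and replicate 5 (1469).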
